A study of Mus musculus with 18 samples.

Results

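The tweety, anoctamin and LRRC8 families hold chloride channels and their relatives, and 9 of their genes, together with 1 endosomal chloride exchanger, were followed library by library. The genes were *Ttyh2* and *Ttyh3* (tweety), *Ano1*, *Ano3*, *Ano6* and *Ano10* (anoctamin), *Lrrc8a*, *Lrrc8c* and *Lrrc8d* (LRRC8) and *Clcn3*, matched by symbol to 10 of the 22019 rows of the table, and all 10 passed the filter on low values that left 16021 genes to test. The set was chosen by measured values of these data, because the *Ttyh3* and *Ano3* signal separates SUN1L from KDEL libraries. Their SUN1L against KDEL differences are therefore given as a description with no test, and tests are given for substrate rigidity and for the inhibitors.

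Messenger RNA was sequenced from NIH 3T3 mouse embryonic fibroblasts with a Tet-ON system, all kept with 1 μg/ml doxycycline for 48 hr on fibronectin-coated polyacrylamide gels. SUN1L cells carried SS-HA-Sun1L-KDEL, the lumenal domain of SUN1 held in the endoplasmic reticulum, which acts as a dominant negative and breaks the LINC complex, the bridge of SUN and nesprin proteins between the cytoskeleton and the nuclear lamina. KDEL cells carried SS-GFP-KDEL as the control and had also been enriched by fluorescence sorting, which the SUN1L cells had not. Libraries are named by the serial numbers of the sequencing laboratory. KDEL cells on 1 kPa gave libraries 4, 16 and 28, KDEL cells on 308 kPa libraries 8, 20 and 32, SUN1L cells on 1 kPa libraries 3, 15 and 27, and SUN1L cells on 308 kPa libraries 7, 19 and 31. Libraries 12, 24 and 36 came from KDEL cells treated on the stiff gel with 25 μM Y27, and libraries 10 and 22 from such cells with 10 μM blebbistatin, an inhibitor of non-muscle myosin II. Library 34 came from empty-vector cells on 308 kPa, and its labels name Y27 in 1 place and blebbistatin in another, so it was kept out of the tests. Each construct is 1 stable cell population. The methods call the replicates biological without further detail, and p-values measure the spread between these libraries.

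Tweety proteins are membrane glycoproteins described as calcium- or volume-dependent anion channels, a role that is debated. Anoctamins fall into calcium-activated chloride channels and calcium-activated scramblases, which move phospholipids between the leaflets of a membrane. LRRC8 proteins form the volume-regulated anion channel, which opens when cells swell and in which LRRC8A is the subunit that the others need. In fibroblasts, chloride flow through the LRRC8 channel is known for its part in volume control.

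*Ttyh3* and *Ano3* are the genes the results turn on, and the sequence before the annotated start of *Ttyh3* is shown because its difference was the larger. The window comes from RefSeq on GRCm38.p6, chr5:140649032-140649281, and is written 5′ to 3′ on the minus strand. Capitals mark hits, on either strand, of GGGCGG, the GC box.
Ttyh3 upstream: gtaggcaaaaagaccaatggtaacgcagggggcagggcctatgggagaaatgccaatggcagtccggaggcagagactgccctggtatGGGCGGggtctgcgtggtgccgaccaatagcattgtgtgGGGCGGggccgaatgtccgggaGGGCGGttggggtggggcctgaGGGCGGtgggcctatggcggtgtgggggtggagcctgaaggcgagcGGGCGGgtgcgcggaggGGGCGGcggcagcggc
The 250 bases before *Ttyh3* held 6 GC boxes, 19 CpG and 69.2% G or C, and no TATAAA (the TATA box) or GGAATG (the core that TEAD factors bind) on either strand. A GC box occurs in 32.7% of the 32851 windows of 250 bases in the same table, TATAAA in 12.4% and GGAATG in 12.6%, and 80.3% of the windows hold fewer CpG. These matches are letters in a window and not measured binding. No window is shown for *Ano3*, whose RefSeq starts lie inside the gene as the table places it.

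All values are normalized signal, a linear unit with 1 as the lowest value, and the sums per library lay between 29580000 and 34880000. The smallest steps in the values put 1 read pair at 1.70 to 2.49 signal units and the depth at an estimated 12670000 to 19460000 read pairs. Values under about 3 read pairs are therefore hard to tell from the lowest value, though the filter and the fits used them as they stand. *Sun1*, whose lumenal part is in the construct, lay between 38450 and 82620 in the 6 SUN1L libraries and between 2785 and 3799 in the other 12, as labelled. Fibroblast markers were high in every library, with *Col1a2* between 92140 and 231500, while *Krt18* and *Myod1* stood at the lowest value in all 18 libraries and *Epcam* in 17. Some markers of other cell types were nonetheless detected in every library. The epithelial *Cdh1* lay at 88.04 to 311.0 and the muscle *Des* at 181.3 to 465.0. The endothelial *Cdh5* lay at 7.004 to 234.4 and the immune *Cd68* at 58.67 to 304.2. Libraries 3, 7 and 8 stood apart. Their summed signal of 10 dividing-cell genes was 6120 to 9648, against 44200 to 77480 in the other 15, and that of 7 fibroblast genes was 207100 to 245700 against 285700 to 516500. Many of the differences below are given with and without them. In bulk RNA, fewer cells of a kind and less RNA per cell cannot be told apart.

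**Figure D1:**
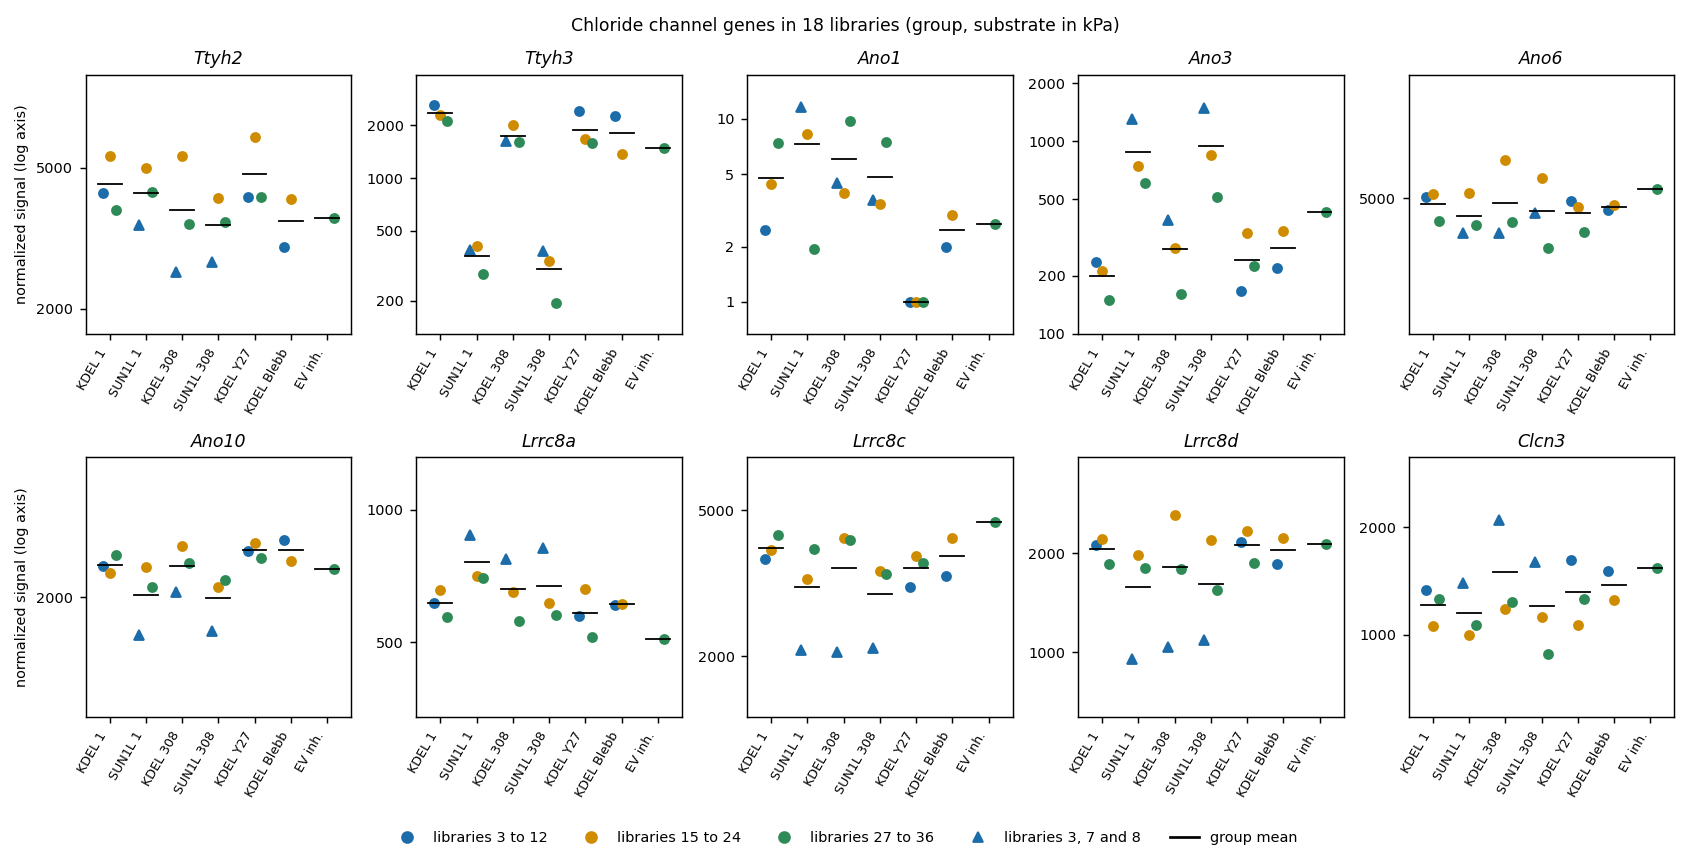
Normalized signal (log axis) of the 10 genes in each of the 18 libraries by group (KDEL or SUN1L cells on 1 or 308 kPa, KDEL cells on 308 kPa with Y27 or blebbistatin, and the empty-vector library), with 1 point per library, triangles for libraries 3, 7 and 8, and a bar at the group mean. *Ttyh3* sits at or below 409.5 in all 6 SUN1L libraries and *Ano3* at or above 513.4, while most other genes overlap between the groups.

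*Ttyh3*, which encodes a tweety protein described as a large-conductance chloride channel, was several-fold lower in SUN1L cells on both rigidities, at 360.7 ± 67.8 (SD, n = 3) against 2336 ± 235 (SD, n = 3) on 1 kPa and 305.2 ± 99.7 (SD, n = 3) against 1745 ± 223 (SD, n = 3) on 308 kPa. In KDEL cells on 1 kPa, libraries 4, 16 and 28 gave 2589, 2297 and 2123, and in SUN1L cells on 1 kPa, libraries 3, 15 and 27 gave 389.4, 409.5 and 283.3. On 308 kPa, KDEL libraries 8, 20 and 32 gave 1624, 2002 and 1610, and SUN1L libraries 7, 19 and 31 gave 386.3, 335.3 and 193.9. No SUN1L library came near a KDEL library on either gel. The KDEL mean was 6.48 times the SUN1L mean on 1 kPa and 5.72 times on 308 kPa. On the log2(value + 1) scale the differences were -2.71 and -2.56 (SE 0.24 each), and without libraries 3, 7 and 8 they were -2.77 and -2.81. The difference in *Ttyh3* was as large when the libraries poor in dividing-cell genes were left out.

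The libraries with an inhibitor lay on the KDEL side. With Y27, libraries 12, 24 and 36 gave 2417, 1664 and 1575 for *Ttyh3*, with blebbistatin libraries 10 and 22 gave 2250 and 1377, and the empty-vector library gave 1484. The 12 libraries without SUN1L therefore ran from 1377 to 2589, with a median of 1833, and the 6 with SUN1L from 193.9 to 409.5, with a median of 360.8. The Y27 and blebbistatin libraries of KDEL cells share their rigidity and construct with the KDEL libraries on 308 kPa. The empty-vector library shares the rigidity but not the construct.

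*Ttyh2*, the other tweety gene of the set, did not separate the cells. Its KDEL libraries on 1 kPa gave 4249, 5414 and 3816 and the SUN1L libraries 3460, 4990 and 4262, and on 308 kPa the values were 2549, 5406 and 3482 against 2712, 4106 and 3529. The groups overlapped on both gels, with log2 differences of -0.08 and -0.10 (SE 0.27 each), or 0.05 and -0.19 without libraries 3, 7 and 8, and libraries 16, 20, 15 and 19 of the middle run were each the highest of their group. Within a run of library numbers the signs differed, 1 run higher and 2 lower on 1 kPa, and 2 higher and 1 lower on 308 kPa.

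*Ano3*, an anoctamin best known from brain, where it is linked to dystonia and to the control of a potassium channel, moved the opposite way to *Ttyh3*. In KDEL cells on 1 kPa, libraries 4, 16 and 28 gave 237.0, 212.0 and 149.8, and SUN1L libraries 3, 15 and 27 gave 1304, 745.6 and 605.5. On 308 kPa the KDEL libraries gave 388.6, 279.4 and 160.6 and the SUN1L libraries 1483, 854.4 and 513.4. The lowest SUN1L library lay above the highest KDEL library on both gels, though the spread within each group was wide. The SUN1L mean was 4.43 times the KDEL mean on 1 kPa, 885.0 ± 370 against 199.6 ± 44.9 (SD, n = 3 each), and 3.44 times on 308 kPa, 950.3 ± 492 against 276.2 ± 114 (SD, n = 3 each). The log2 differences were 2.09 and 1.74 (SE 0.44 each), and 1.77 and 1.64 without libraries 3, 7 and 8, of which libraries 3 and 7 held the highest *Ano3* values of all.

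For *Ano3* the libraries with an inhibitor again lay with KDEL. Y27 libraries 12, 24 and 36 gave 167.9, 335.8 and 224.2, blebbistatin libraries 10 and 22 gave 218.7 and 340.5, and the empty-vector library gave 427.9, the highest of the 12 libraries without SUN1L. Over those 12 the median was 230.6, against 800.0 over the 6 SUN1L libraries. Neuronal and glial markers were near the lowest value in every group. Their 6 genes summed to 14.06 to 22.87 in SUN1L cells on 1 kPa and 6.307 to 17.37 in KDEL cells on 1 kPa, with *Rbfox3* at the lowest value in 16 libraries and *Snap25* in 15. The 3 muscle markers summed to 296.8 to 467.0 in SUN1L and 198.6 to 287.9 in KDEL cells on 1 kPa, nearly all of it *Des*, with *Myog* at the lowest value in 16 libraries. On 308 kPa the muscle sums were 324.6 to 449.2 and 247.0 to 388.6, and the part of these markers in the *Ano3* values was not tested.

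**Figure D2:**
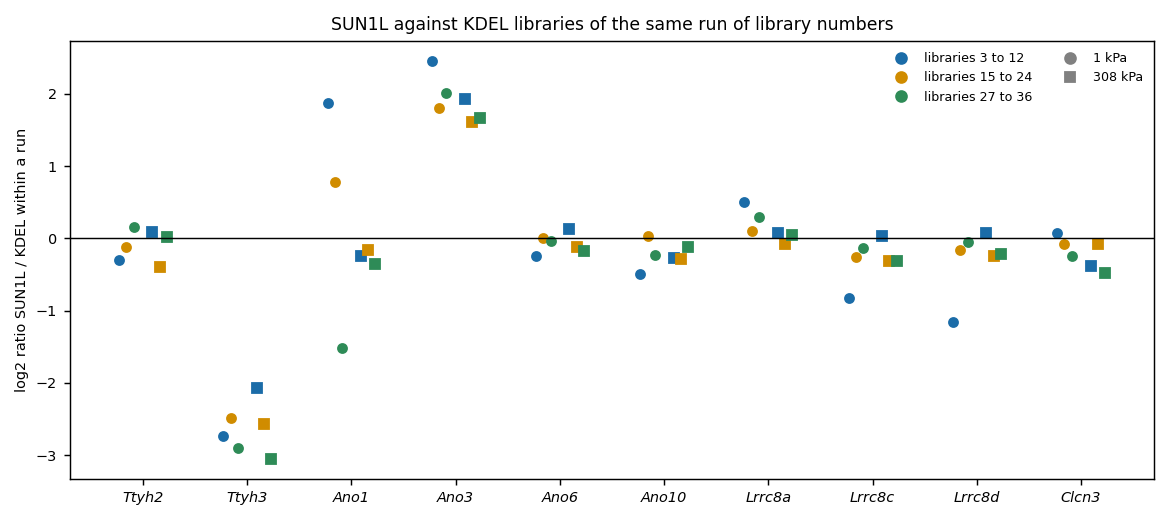
Log2 ratio of SUN1L to KDEL signal for each gene within the 3 runs of library numbers (colours), on 1 kPa (circles) and 308 kPa (squares), with a line at no difference. *Ttyh3* lies between -3.05 and -2.07 and *Ano3* between 1.61 and 2.46 in all 6 comparisons of a run. The other genes lie between -1.15 (*Lrrc8d*) and 0.51 (*Lrrc8a*), both in the run of library 3 on 1 kPa, apart from *Ano1*, which is near the lowest value.

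By serial number the libraries form 3 runs, from 3 to 12, from 15 to 24 and from 27 to 36, and every KDEL and SUN1L group has a library in each, though a shared day is not stated. Within the runs, *Ttyh3* was lower in SUN1L in 3 of 3 on each gel, by -2.90 to -2.49 on 1 kPa and -3.05 to -2.07 on 308 kPa. *Ano3* was higher in 3 of 3 on each gel, by 1.81 to 2.46 and 1.61 to 1.93. *Ttyh3* and *Ano3* were the only members whose SUN1L and KDEL libraries did not overlap on both gels. The rule named these genes for that separation, so nothing is read from it. The share of all genes separated on both gels was not computed.

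*Ano6* encodes a calcium-activated scramblase that exposes phosphatidylserine on platelets. Its SUN1L and KDEL libraries overlapped on both gels. On 1 kPa, KDEL libraries gave 5034, 5102 and 4495 and SUN1L libraries 4240, 5131 and 4403. On 308 kPa they gave 4252, 5984 and 4460 against 4659, 5493 and 3946. The log2 differences were -0.09 and -0.06 (SE 0.16 each), and -0.03 and -0.15 without libraries 3, 7 and 8. *Ano6* stayed between 3946 and 5984 in all 18 libraries.

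*Ano10* encodes an anoctamin of internal membranes that is mutated in a recessive ataxia. KDEL libraries gave 2334, 2255 and 2463 on 1 kPa and 2050, 2571 and 2372 on 308 kPa, and SUN1L libraries 1663, 2318 and 2103 on 1 kPa and 1695, 2105 and 2178 on 308 kPa. The groups overlapped, and the lowest values were those of libraries 3 and 7, followed by library 8, all 3 below the 15 others, which ran from 2103 to 2660. The log2 differences were -0.23 on each gel (SE 0.15), and -0.09 and -0.21 without libraries 3, 7 and 8.

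*Ano1*, the classical calcium-activated chloride channel, was barely detected. Its values were 2.458, 4.426 and 7.381 in KDEL and 11.67, 8.28 and 1.947 in SUN1L libraries on 1 kPa, and 4.455, 3.934 and 9.802 against 3.627, 3.43 and 7.474 on 308 kPa. These are a few read pairs at most, so no fold is given.

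*Lrrc8a*, which encodes the subunit that the volume-regulated channel cannot do without, was slightly higher in SUN1L cells on 1 kPa. KDEL libraries gave 615.5, 657.6 and 570.1 and SUN1L libraries 876.9, 707.5 and 699.9, without overlap, and the means were 614.4 ± 43.8 and 761.4 ± 100 (SD, n = 3 each). On 308 kPa the values were 775.0, 650.7 and 558.4 against 819.7, 614.0 and 577.9 and the groups overlapped. The log2 differences were 0.30 and 0.02 (SE 0.18 each), and 0.20 and -0.02 without libraries 3, 7 and 8. These 3 libraries held the highest *Lrrc8a* values of all, 775.0 to 876.9, above the 508.2 to 707.5 of the other 15.

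*Lrrc8c* and *Lrrc8d* encode subunits that join LRRC8A and set what the channel lets through. For *Lrrc8c*, KDEL libraries gave 3674, 3907 and 4282 and SUN1L libraries 2081, 3257 and 3917 on 1 kPa. On 308 kPa they gave 2047, 4215 and 4162 against 2098, 3407 and 3359. The low values in both cell types were again libraries 3, 7 and 8, at 2047 to 2098 against 3096 to 4652 in the other 15. For *Lrrc8d*, KDEL libraries gave 2123, 2212 and 1859 on 1 kPa and SUN1L libraries 953.7, 1976 and 1803. On 308 kPa they gave 1034, 2612 and 1798 against 1088, 2197 and 1549. Libraries 3, 7 and 8 lay at 953.7 to 1088, below the 1549 to 2612 of the others. The groups of both genes overlapped on both gels. The log2 differences on 1 kPa were -0.40 (SE 0.31) for *Lrrc8c* and -0.45 (SE 0.37) for *Lrrc8d*, and -0.14 and -0.13 without libraries 3, 7 and 8. On 308 kPa they were -0.19 (SE 0.31) and -0.13 (SE 0.37), and -0.31 and -0.23 without these libraries.

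**Figure D3:**
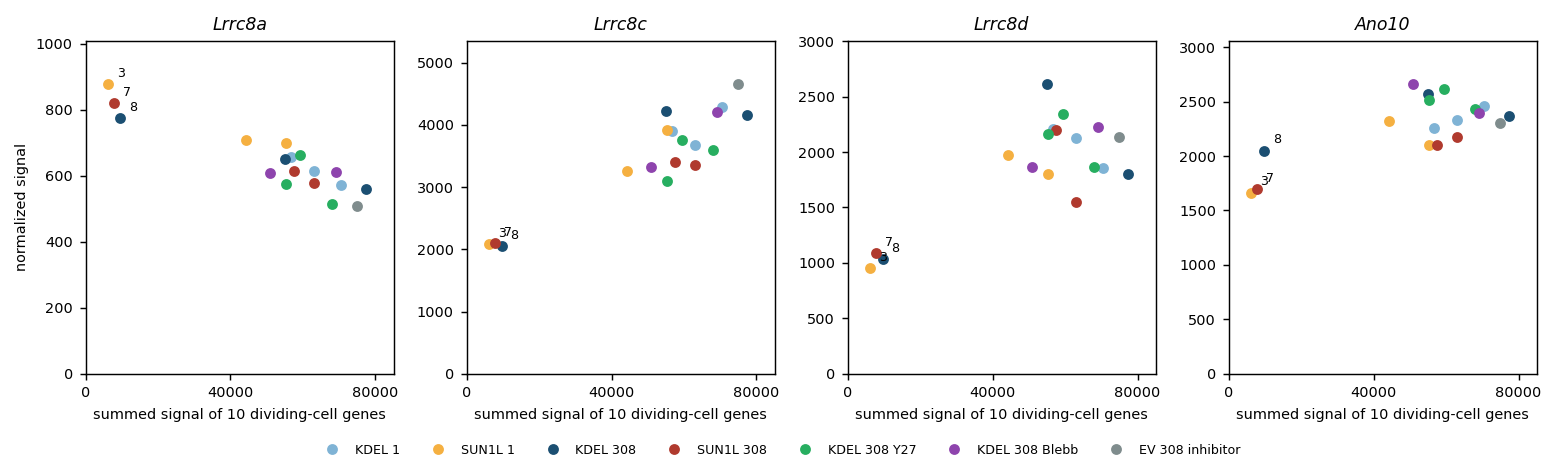
Normalized signal of *Lrrc8a*, *Lrrc8c*, *Lrrc8d* and *Ano10* in the 18 libraries against the summed signal of 10 dividing-cell genes in the same library, with 1 point per library coloured by group. Libraries 3, 7 and 8, numbered in the panels, lie at sums of 6120 to 9648 and hold the highest *Lrrc8a* and the lowest *Lrrc8c*, *Lrrc8d* and *Ano10* values.

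In libraries 3, 7 and 8, which belong to SUN1L on 1 kPa, SUN1L on 308 kPa and KDEL on 308 kPa, *Lrrc8a* was high while *Lrrc8c* and *Lrrc8d* were low, and the dividing-cell genes were low as well. The part of dividing cells in these values was not tested. *Ttyh2*, *Ttyh3*, *Ano1*, *Ano3*, *Ano6* and *Clcn3* overlapped between these 3 libraries and the other 15. The share of all genes that lay outside the other 15 in these libraries was not computed. Nothing particular to the members is therefore read from this split.

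*Clcn3* encodes a chloride-proton exchanger of endosomes. KDEL libraries gave 1333, 1057 and 1260 on 1 kPa and 2095, 1186 and 1233 on 308 kPa, and SUN1L libraries 1402, 997.3 and 1068 and 1602, 1125 and 884.6. The groups overlapped on both gels, and the single high value was library 8. The log2 differences were -0.08 and -0.31 (SE 0.26 each), and -0.23 and -0.28 without libraries 3, 7 and 8.

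Counted over the set, 2 members were higher in SUN1L on 1 kPa without overlap (*Ano3* and *Lrrc8a*) and 1 was lower (*Ttyh3*), and on 308 kPa 1 was higher and 1 was lower. Over all 16021 genes the groups did not overlap for 6.65% (higher) and 7.86% (lower) on 1 kPa, and for 1.95% and 2.33% on 308 kPa. Since the rule used this contrast, nothing is read from these counts. The median log2 difference over the 10 members was -0.09 on 1 kPa and -0.16 on 308 kPa, and over all genes -0.01 and -0.03.

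Does rigidity move these genes? It was not used to choose them, so it was tested with limma over all 16021 genes. Between 308 and 1 kPa, 0 of the 10 members were called in KDEL cells, where 0% of all genes were called. A call required a difference of 2-fold or more and a p under 0.05 after Benjamini-Hochberg adjustment over all genes. Likewise 0 of 10 were called in SUN1L cells, where again 0% of all genes were. At an unadjusted p under 0.05, 0 of the 10 passed in KDEL cells and 0 in SUN1L cells, against 1.37% and 1.93% of all genes. The log2 differences of the members ran from -0.42 to 0.40 in KDEL and from -0.33 to 0.05 in SUN1L cells. Leaving *Ano1* aside, their 95% intervals ran from -1.10 to 1.37 in KDEL and from -0.92 to 1.02 in SUN1L cells, and those that reached past 2-fold were *Ano3* in both cell types and *Lrrc8d* in KDEL cells.

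*Ttyh3* was the member whose KDEL libraries did not overlap between the gels, at 2123 to 2589 on 1 kPa and 1610 to 2002 on 308 kPa. The groups of 2.65% of all genes were separated in that direction. Its log2 difference was -0.42 (95% interval -0.96 to 0.12, limma's unadjusted p = 0.112, adjusted p = 1), lower on the stiff gel in 3 of 3 runs, by -0.67 to -0.20. In SUN1L cells the difference was -0.28 (95% interval -0.82 to 0.26, limma's adjusted p = 1), and without libraries 3, 7 and 8 the differences were -0.37 and -0.42. *Ttyh2* was also lower on the stiff gel in 3 of 3 runs in both cell types, with log2 differences of -0.29 and -0.30 (SE 0.27 each, limma's adjusted p = 1 for both), within the spread between libraries. This spread includes differences between runs. Within runs the differences were -0.737 to -0.00208 in KDEL and -0.351 to -0.272 in SUN1L cells. The difference in KDEL cells rested on library 8, and without libraries 3, 7 and 8 it was -0.03, against -0.28 in SUN1L cells.

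*Ano3* was higher on the stiff gel in 3 of 3 runs of KDEL cells, with a log2 difference of 0.40 (95% interval -0.57 to 1.37, limma's adjusted p = 1), which shrank to 0.11 without libraries 3, 7 and 8. Dividing-cell genes summed to 9648 to 77480 in KDEL cells on 308 kPa and 56750 to 70370 on 1 kPa, and their part in this difference was not tested. For *Lrrc8c* and *Lrrc8d* the differences in KDEL cells were -0.26 and -0.28 with library 8 and 0.09 and 0.07 without libraries 3, 7 and 8, so the sign rested on those libraries.

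The interaction asks whether the response to rigidity differs between SUN1L and KDEL cells. By limma, 0 of 10 members passed a Bonferroni-corrected p under 0.05, where 0% of all genes were called, and 0 had an unadjusted p under 0.05, against 0.905% of all genes. For *Ttyh3* the interaction was 0.14 (95% interval -0.62 to 0.90) and for *Ano3* -0.35 (95% interval -1.72 to 1.02) on the log2 scale. *Lrrc8d* gave 0.32 (SE 0.52) and *Lrrc8a* -0.29 (SE 0.25). Without libraries 3, 7 and 8 the interaction was -0.04 for *Ttyh3*, -0.13 for *Ano3*, -0.11 for *Lrrc8d* and -0.22 for *Lrrc8a*, with another sign for *Ttyh3* and *Lrrc8d*. The SUN1L difference of *Ttyh3* and of *Ano3* was thus not shown to depend on the gel, with intervals that still hold changes of nearly 2-fold for *Ttyh3* and more for *Ano3*.

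**Figure D4:**
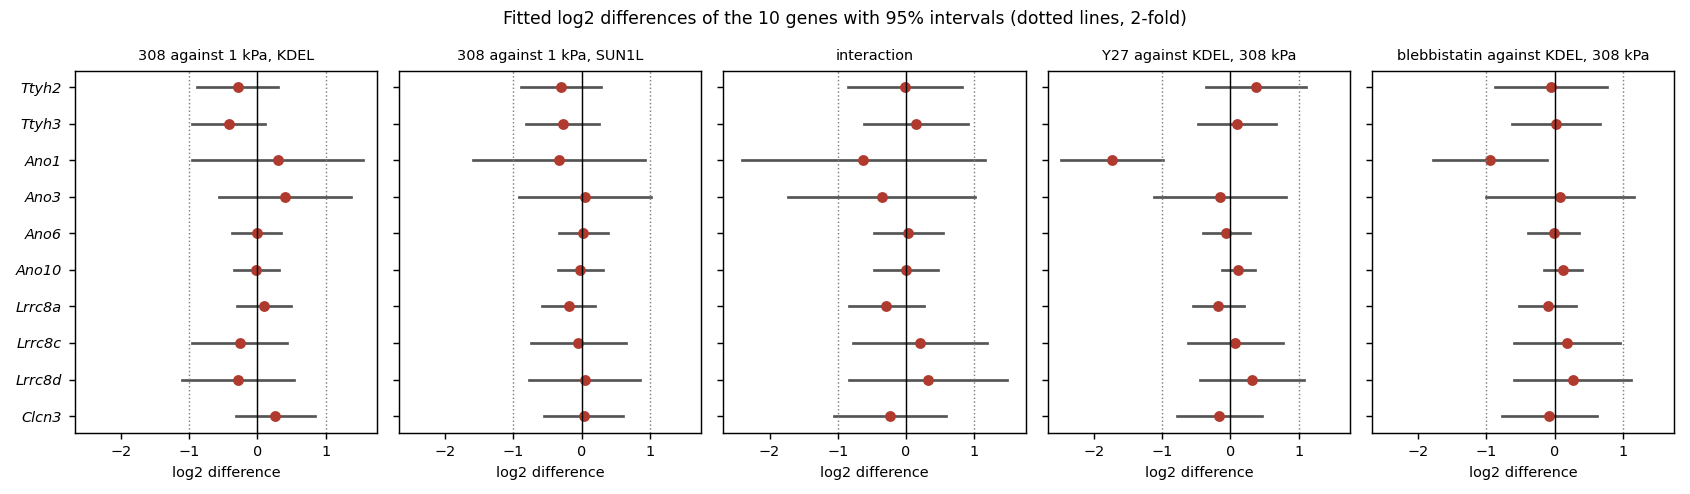
Fitted log2 differences (points) with 95% intervals (lines) of the 10 genes for rigidity in KDEL and in SUN1L cells, the interaction, and each inhibitor against untreated KDEL cells on 308 kPa, with dotted lines at 2-fold. All intervals cross 0 except those of *Ano1* for Y27 and blebbistatin, and *Ano1* is near the lowest value.

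Y27 and blebbistatin lower the tension that myosin puts on the nucleus, and both were compared with the same 3 untreated KDEL libraries on 308 kPa, so the comparisons are not independent. With Y27, 0 of 10 members were called by limma, where 0% of all genes were called, and 1 (*Ano1*) had an unadjusted p under 0.05, against 5.80% of all genes. With blebbistatin, which had 2 libraries, 0 of 10 were called, where again 0% of all genes were, and 1 (*Ano1*) had an unadjusted p under 0.05, against 3.04% of all genes.

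*Ttyh3* showed a log2 difference of 0.09 with Y27 (95% interval -0.48 to 0.66) and 0.02 with blebbistatin (95% interval -0.62 to 0.66). *Ano3* showed -0.15 (95% interval -1.13 to 0.82) and 0.07 (95% interval -1.01 to 1.16). Library 8 is 1 of the 3 untreated libraries, and without it *Ttyh3* gave 0.04 with Y27 and -0.03 with blebbistatin, and *Ano3* 0.14 and 0.36, so the sign for *Ano3* with Y27 rested on library 8. Beside these stand the SUN1L differences on the same gel, -2.56 for *Ttyh3* and 1.74 for *Ano3*, which share the KDEL libraries on 308 kPa. The difference between the contrasts was not tested.

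*Ano1* stood at the lowest value, 1, in all 3 Y27 libraries, and at 1.987 and 2.974 with blebbistatin, below the 3.934 to 9.802 of the untreated libraries. The groups of 3.62% of all genes were separated downwards with Y27 and of 5.85% with blebbistatin. limma gave an unadjusted p of 0.00104 (adjusted p = 0.741) for Y27 and 0.0323 (adjusted p = 1) for blebbistatin. A difference of a few read pairs was not detectable with confidence at this depth.

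The other members moved within their spread. *Ttyh2* was higher with Y27 in 3 of 3 runs, at 4134, 6114 and 4150, with a log2 difference of 0.38 (95% interval -0.36 to 1.11, limma's adjusted p = 0.854) that was 0.12 without library 8, and gave 2986 and 4088 with blebbistatin. *Ano10* was higher with Y27 in 3 of 3 runs as well, at 2517, 2614 and 2430, by 0.12 (95% interval -0.13 to 0.37), or 0.03 without library 8, and gave 2660 and 2392 with blebbistatin. *Ano6* gave 4929, 4792 and 4270 with Y27 and 4725 and 4850 with blebbistatin, and *Clcn3* 1624, 1065 and 1265 and 1514 and 1249. *Lrrc8a* gave 573.5, 661.0 and 513.2 with Y27 and 608.6 and 611.7 with blebbistatin, *Lrrc8c* 3096, 3760 and 3589 and 3315 and 4202, and *Lrrc8d* 2162, 2345 and 1868 and 1861 and 2228. None of these groups stood clear of the untreated KDEL libraries. Without library 8 the differences of *Lrrc8c*, *Lrrc8d* and *Clcn3* were -0.27, -0.03 and 0.10 with Y27, against 0.07, 0.32 and -0.16 with it, so these signs rested on library 8. With blebbistatin they were -0.17, -0.09 and 0.18 without it, against 0.18, 0.27 and -0.08 with it, and that of *Lrrc8a* was 0.02 against -0.10.

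Members were set against each other only per length, as signal per kb of the exon union of each gene, which is an approximation since the counted features are not stated. In KDEL cells on 308 kPa the order of levels per kb was *Ttyh2* (1020), *Ano6* (989), *Ano10* (883), *Lrrc8c* (454), *Ttyh3* (375), *Lrrc8d* (144), *Lrrc8a* (116), *Clcn3* (88.1), *Ano3* (38.0) and *Ano1* (1.17). The libraries of *Ttyh2*, *Ano6* and *Ano10* overlapped, as did those of *Lrrc8c* and *Ttyh3* and those of *Lrrc8d*, *Lrrc8a* and *Clcn3*, while *Ano3* and *Ano1* lay below their neighbours. In SUN1L cells on 308 kPa the level of *Ano3* per kb, 131 ± 67.7 (SD, n = 3), was in the range of *Lrrc8d* and *Lrrc8a*, and that of *Ttyh3*, 65.6 ± 21.4 (SD, n = 3), overlapped *Clcn3* at 70.5 ± 21.4 (SD, n = 3). By group means on 308 kPa, *Ano3* therefore stood below *Ttyh3* in KDEL cells and above it in SUN1L cells. In SUN1L cells on 1 kPa the means per kb were 122 for *Ano3* and 77.6 for *Ttyh3*. The SUN1L libraries of both genes overlapped, at 70.7 to 204 against 41.7 to 83.1 on 308 kPa. On 1 kPa they ran from 83.4 to 180 and from 60.9 to 88.1. The rule chose both genes by this contrast, so nothing is read from their order.

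Other genes of chloride transport were taken from a list of 48 genes, of which 47 were in the table and 41 were tested. By limma, 0 of 41 were called in either direction in any of the 7 comparisons. In SUN1L against KDEL cells, where 0.0874% of all genes were called on 1 kPa and 0.0624% on 308 kPa, 2 of 41 had an unadjusted p under 0.05 on each gel, against 4.54% and 2.53% of all genes. These were *Ano7* (-0.94 on the log2 scale, at a mean of 1.715) and *Clic3* on 1 kPa, and *Ano5* (-1.38, mean 1.84) and *Best2* (1.60, mean 4.856) on 308 kPa, named after their values were seen and mostly near the lowest value. For rigidity the counts were 2 (*Ano2* and *Ano5*) in KDEL and 0 in SUN1L cells, and for the interaction 1 (*Ano5*), against 1.37%, 1.93% and 0.905% of all genes. For Y27 they were 5 (*Ttyh1*, *Ano2*, *Ano8*, *Clca1* and *Wnk4*) and for blebbistatin 3 (*Ttyh1*, *Ano5* and *Wnk1*), against 5.80% and 3.04% of all genes. *Wnk4*, which encodes a kinase that controls cation-chloride cotransport, differed by 0.88 (SE 0.24, limma's adjusted p = 0.793) with Y27. The median SUN1L against KDEL difference of the list was -0.03 on 1 kPa and 0.01 on 308 kPa. Among the 7 tested relatives of the members (*Ttyh1* and other anoctamins), 0 were called, and 3 lay above and 4 below 0 on 1 kPa. The other LRRC8 subunits, *Lrrc8b* and *Lrrc8e*, lay below 0 on both gels, at -0.28 (SE 0.23) and -0.70 (SE 0.48) on 1 kPa and -0.30 (SE 0.23) and -0.30 (SE 0.48) on 308 kPa. *Lrrc8b* gave 643.2 ± 66.2 in KDEL and 545.5 ± 164 in SUN1L cells on 1 kPa (SD, n = 3 each).

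*Ttyh1*, the third tweety gene, known from brain, was low in these cells. It gave 19.16 ± 2.64 in KDEL and 34.3 ± 9.05 in SUN1L cells on 1 kPa (SD, n = 3 each), without overlap, and 30.56 ± 4.59 and 31.73 ± 15.3 on 308 kPa (SD, n = 3 each). The log2 difference was 0.79 (SE 0.38, limma's adjusted p = 0.930) on 1 kPa. Against the untreated KDEL libraries on 308 kPa it gave 16.16 ± 3.78 with Y27 (SD, n = 3) and 8.334 and 12.1 with blebbistatin, both groups below all 3 untreated libraries, and limma's adjusted p was 0.793 and 1. *Clca1* ran the other way, at 26.2 to 118.1 with Y27 and 26.64 and 58.87 with blebbistatin, above the 9.802 to 17.3 of untreated cells, with limma's adjusted p of 0.803 and 1. The share of all genes separated upwards with the inhibitors was not computed. *Clcn1*, the chloride channel of skeletal muscle, gave 56.11 ± 5.22 in SUN1L and 36.28 ± 8.93 in KDEL cells on 308 kPa (SD, n = 3 each). The log2 difference there was 0.64 (SE 0.47, limma's unadjusted p = 0.200). The empty-vector library gave 77.78, above the 51.54 to 61.8 of the SUN1L libraries on that gel. On 1 kPa the groups overlapped, at 20.57 to 49.91 in SUN1L and 12.8 to 42.82 in KDEL cells. *Clic3*, a small intracellular protein of the CLIC family, gave 18.75 ± 6.52 and 7.755 ± 2.22 on 1 kPa (SD, n = 3 each), a log2 difference of 1.14 (SE 0.48, limma's adjusted p = 0.930).

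The genes whose pattern was most like that of *Ttyh3*, by Pearson's r of log2(value + 1) over the 12 KDEL and SUN1L libraries without inhibitor, were *Rgl3* (0.984), *Serpina1a* (0.975), *Pof1b* (0.965), *Serpina1c* (0.957) and *Olfr1028* (0.954). *Rgl3*, which encodes a Ras-like guanine exchange factor, ran from 105.5 to 176.1 in KDEL and from 1 to 7.004 in SUN1L libraries, and *Serpina1a*, an alpha-1 antitrypsin gene, from 386.3 to 458.3 and from 65.26 to 121.4. *Serpina1a* and *Serpina1c* are near-identical copies, so reads may be shared between them. Most like *Ano3* were *Nhlrc4* (0.937), *Espnl* (0.933), *Prkd3* (0.926), *Sun1* (0.924) and *Samd5* (0.922). *Espnl* ran from 75.11 to 120.0 in KDEL and from 159.2 to 349.9 in SUN1L libraries, and *Prkd3*, which encodes a protein kinase D, from 697.6 to 1024 and from 932.3 to 1608. The 12 libraries fall into 2 groups by construct, and r in large part describes that split. The ranges of *Prkd3* and *Samd5* overlapped between the groups, and r also holds differences between libraries of 1 group. It is given as a description.

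*Ttyh3* lies on chromosome 5, with a gap of 1371 kb between it and *Sun1*, so its neighbours were listed too. The 3 tested genes on either side of *Ttyh3* were *Chst12*, *Grifin*, *Lfng*, *Iqce*, *Brat1* and *Amz1*, and their SUN1L against KDEL log2 differences lay between -0.30 and 0.50 on 1 kPa and between -0.62 (*Grifin*, at a mean of 1.297) and 0.17 on 308 kPa. *Iqce*, the next gene after the start of *Ttyh3*, gave 0.23 and -0.05. Of 31 genes within 2000 kb with a mean of at least 10, *Sun1* and *Ttyh3* aside, the differences ran from -0.31 to 1.28 on 1 kPa, with 2 at 2-fold or more (*Gper1* and *Papolb*, both higher and named after their values were seen), and from -0.26 to 0.23 on 308 kPa. *Ano3* lies on chromosome 2, with *Muc15*, a mucin gene, inside it on the other strand. *Muc15* gave log2 differences of 1.27 and 0.71 at a mean of 5.116, and since the counting is not stated to use strand, its reads and those of *Ano3* may not be told apart. *Slc5a12*, the gene next to its end, gave 1.29 and 1.10 at a mean of 2.636, a level of about 1 read pair. The other near genes were *Bbox1* (0.41 and 0.15), *Fibin* (0.48 and -0.50), *Olfr1309* (-0.11 and 0.12) and *Olfr1310* (0.14 and 0.485). Of these only *Fibin*, at 103.2, had a mean of at least 10. Within 2000 kb of *Ano3*, 18 genes besides it had a mean of at least 10, which leaves out *Muc15* and *Slc5a12* but holds *Fibin*. Their differences ran from -0.73 to 0.84 on 1 kPa and from -0.50 to 0.81 on 308 kPa, and 0 reached 2-fold on either gel.

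**Figure D5:**
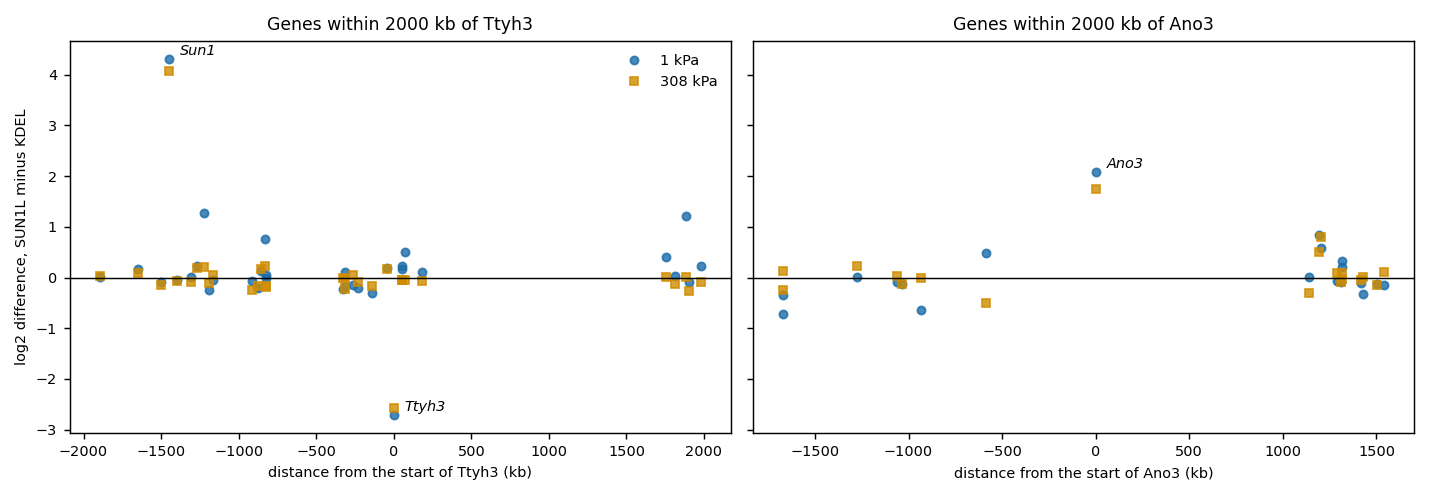
SUN1L minus KDEL log2 difference of genes with a mean signal of at least 10 within 2000 kb of *Ttyh3* (left) and *Ano3* (right), against the distance from the gene's start in kb, on 1 kPa (circles) and 308 kPa (squares). *Ttyh3* (-2.71 and -2.56) and *Ano3* (2.09 and 1.74) stand away from the other genes shown, *Sun1* aside. The limit on the mean leaves out *Muc15* (1.27 and 0.71), inside *Ano3*, and *Slc5a12* (1.29 and 1.10), next to its end. *Sun1*, part of which is in the construct, lies at -1448 kb.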

How the data were processed

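Polyadenylated RNA of 18 libraries was sequenced in pairs. The authors aligned reads with TopHat2 2.0 (named with FastQC and SAMtools in the submitters' processing notes), filtered them by quality, mates and duplicates in AvadisNGS, and normalized with the TMM method (trimmed M-value means). The deposited table holds 1 linear signal value per gene and library, with 1 as the lowest value and no correction for gene length. The methods name mm9, yet the table's positions are those of GRCm38, and only GRCm38 coordinates are given. Columns were matched to samples by their headings, that of library 34 by its heading alone.

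From these values, log2(value + 1) was fitted with limma 3.58.1 in R 4.3.3 (trend, two-sided, 1 mean per group) for genes above 1 in at least 3 of the 18 libraries. SUN1L, rigidity and their interaction used 12 libraries, the inhibitors 8. Calls needed a difference of 2-fold or more and a p under 0.05 after Benjamini-Hochberg adjustment, interactions a Bonferroni-corrected p under 0.05. The smallest p of an exact permutation test of 1 gene is 0.1 for 3 libraries against 3. Whole reads were not recovered, so no count test was used. The fit was tested on simulated data.

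The members, the wider list and the tests were chosen with earlier results of these data known. The rule was to name genes of the wider list that were called, of which there were 0. Per gel, it also named the 4 with the largest absolute SUN1L difference at a mean of at least 10. Genes with an unadjusted p under 0.05 by limma were named as well, outside that rule and after their values were seen. The nearest 3 genes on either side and the 5 most alike were named for *Ttyh3* and *Ano3*. Alternatives were other pseudocounts and filters, all libraries in 1 fit, array weights, a block on runs, library 34 counted as blebbistatin, and each library or run left out. Leaving out libraries 3, 7 and 8 together was added after the data were seen.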

Additional observations from a re-analysis of the deposited data

Results flagged for a closer look

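The empty-vector library on 308 kPa, which entered no comparison because its labels name both inhibitors, gave 427.9 for *Ano3*, above the 160.6 to 388.6 of the 3 KDEL libraries on that gel, and 4652 for *Lrrc8c*, above their 2047 to 4215. It is 1 library with no replicate, and the construct, the inhibitor and the library cannot be told apart.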

How the results depend on the processing

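No member was called in a tested comparison under any alternative, and the differences of *Ttyh3* stayed between -2.81 and -2.54 on 1 kPa and -2.81 and -2.27 on 308 kPa, those of *Ano3* between 1.77 and 2.33 and between 1.35 and 2.11. Of 50 tested member values, 39 changed sign in at least 1 of 895 alternatives, 132 times in all, always without a call. Of 20 SUN1L values, 9 did so. Over all genes, calls for SUN1L on 1 kPa (14) numbered 22 with all 18 libraries in 1 fit, 55 with array weights, 1 without libraries 3 to 12 and 7 without libraries 3, 7 and 8. With 1 library left out they numbered 8 to 14, the lowest without library 4. On 308 kPa (10) they numbered 16, 2 without libraries 3 to 12, 5 without libraries 3, 7 and 8, and 9 to 10 with 1 library left out. Rigidity in SUN1L cells gave 1 call in place of 0 without libraries 3 to 12 and also without libraries 3, 7 and 8. The interaction gave 1 in place of 0 with no filter on low values and also without libraries 3, 7 and 8. Y27 gave 0 to 3 with 1 library left out, 3 without library 8. The causes of these moves were not tested. No paired analysis was possible because the labels pair no libraries by a replicate number. A block on runs of library numbers called no member in a tested comparison and gave 17 and 12 calls for SUN1L on 1 and 308 kPa, while genes at an unadjusted p under 0.05 rose in number from 727 to 2259 and from 406 to 949. The depth limits *Ano1* and other genes of a few read pairs.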
